A study of Mus musculus with 17 samples.

Results

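Antibody-secreting plasma cell genes were followed across sorted mouse bone marrow cells that carry or lack surface proteins held by a glycosylphosphatidylinositol (GPI) anchor. The set held 9 genes: the J chain gene Jchain, the IgA heavy chain gene Igha, the kappa light chain variable segments Igkv9-120 and Igkv15-103 (of segment families 9 and 15), and the plasma cell genes Xbp1, Mzb1, Sdc1, Fkbp11 and Prdm1. All probe sets whose only gene symbol in the array annotation is one of these were taken, which gave 21 of the 45101 probe sets on the array. A filter on low values kept 20 of them and left each of the 9 genes with at least 1 probe set, among 14245 genes in all. The brightest kept probe set stood for its gene. The genes were chosen from a list drawn up with the knock-out comparison of these arrays known, in which Jchain and Igha were among the genes with lower values, so the values of all members in that comparison are described with no test. For the Igkv segments it is not known which comparison led to their listing, and they are described with no test throughout.

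The 17 arrays fall into 5 groups in 2 batches. Batch 1 held GPI-negative and GPI-positive cells from the marrow of mice with a Pig-a knock-out (3 arrays each), both fractions being sorted from knock-out animals. Batch 2 held GPI-negative cells from C57BL/6 recipients transplanted with enriched marrow of Pig-a knock-out donors (4 arrays), GPI-positive cells from C57BL/6 mice grafted with wild-type marrow (3 arrays). Its last group was the GPI-positive fraction of untransplanted wild-type C57BL/6 mice (4 arrays). Before grafting, knock-out marrow was exposed to 10 nM aerolysin, a pore-forming toxin that kills GPI-bearing cells, for 30 minutes, and its recipients had received 9 Gy of total body irradiation. The labels do not say whether recipients of wild-type marrow were irradiated in the same way, nor whether wild-type marrow met the toxin, and they give no ages, no driver of the deletion and no animals, though titles call the arrays biological replicates. P-values therefore measure the spread between these arrays, which may be partly technical. Cells were sorted with antibodies to CD24, CD48 and Gr-1, so these surface proteins set both the GPI status and which cells entered a gate. In sorted bulk RNA, fewer cells of a type and less RNA per cell cannot be told apart.

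Plasma cells are the end stage of the B cell line, and the bone marrow is a main home of those that live long. Prdm1 encodes Blimp-1, the repressor that closes the B cell programme, and Xbp1 encodes the factor that enlarges the endoplasmic reticulum (ER) once the stress sensor encoded by Ern1 has spliced its messenger RNA. The secreted product of many such cells in mucosa and marrow is IgA, which is joined into dimers by the J chain. Mzb1 and Fkbp11 encode ER proteins that help immunoglobulins fold and assemble, and Sdc1 encodes CD138, the surface proteoglycan by which plasma cells are usually sorted.

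The bases upstream of a gene's start are shown for Jchain and Fkbp11, the members with an entry in the RefSeq promoter table (build GRCm38.p6) that also passed a test in batch 2. Of the 9 members, 5 had an entry, with 6 starts in all. Short motifs tied to B cells and ER stress were searched on both strands: the octamer ATTTGCAT, the unfolded protein response core TGACGTGG, the ER stress element parts CCAAT and CCACG, and the E-box CAGCTG, which reads the same on both strands. A TGACGTGG match always contains a CCACG match on the other strand. Capitals mark the matches in the 250 bases before the start, written 5′ to 3′ along the gene.

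Jchain, chr5:88527898-88528147, minus strand: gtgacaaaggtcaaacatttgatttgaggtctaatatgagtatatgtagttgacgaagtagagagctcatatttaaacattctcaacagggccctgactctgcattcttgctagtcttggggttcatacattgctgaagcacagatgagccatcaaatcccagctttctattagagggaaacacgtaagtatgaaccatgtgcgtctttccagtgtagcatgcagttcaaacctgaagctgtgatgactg

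Fkbp11, chr15:98727628-98727877, minus strand: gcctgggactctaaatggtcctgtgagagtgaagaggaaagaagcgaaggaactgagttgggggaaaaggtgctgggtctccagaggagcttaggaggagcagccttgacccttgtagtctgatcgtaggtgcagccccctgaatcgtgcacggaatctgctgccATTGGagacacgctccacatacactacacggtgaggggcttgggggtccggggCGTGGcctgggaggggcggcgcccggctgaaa

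None of these letter strings was found in the Jchain window, nor in that of Xbp1 or of the other Fkbp11 start. The printed Fkbp11 window held CCAAT on the opposite strand, 85 bases before the start, and CCACG likewise, 32 bases before it. Prdm1 and Sdc1 each held both letter strings as well. Among the windows of equal length at 32851 starts, 33.8% held CCAAT, 28.3% held CCACG, 13.0% CAGCTG, 1.6% ATTTGCAT and 0.563% TGACGTGG. The matches describe letters only.

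Several facts of the arrays bear on all members. The targeted gene followed the labels: the brightest Piga probe set had mean log2 values of 1.74 and 0.51 in the GPI-negative groups of the knock-out and of the recipients, against 3.78, 4.13 and 4.20 in the 3 GPI-positive groups. The 3 GPI-positive knock-out arrays differed little from each other: their median SD was 0.072 over the brighter probe sets against 0.143 to 0.187 in the other groups. Knock-out GPI-negative arrays also stood apart within batch 1 in their hybridisation controls, with a mean log2 value of 8.47 ± 0.32 (SD, n = 3) against 6.49 ± 0.25 in GPI-positive arrays. Their 3′ minus 5′ difference of the Gapdh control was -0.16 ± 0.13 against -1.02 ± 0.02. Group means of the hybridisation controls were 6.56 to 6.96 in batch 2. Batch 1 arrays used 500 ng of RNA and batch 2 arrays 1000 ng, so these controls are not compared between batches. Neutrophil genes, which mark the bulk of marrow, were bright on all arrays, with a summed log2 level of 13.89 to 14.58. All values below are log2 intensities from the deposited table, and levels are compared only within a probe set and a batch.

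Among the members, the immunoglobulin and J chain messages had the widest gap between the sorted fractions of knock-out marrow. Jchain read 3.98, 4.95 and 3.85 on the GPI-negative arrays and 7.34, 7.20 and 7.35 on the GPI-positive arrays. The highest GPI-negative array, replicate 2, stayed more than 2 log2 units under the lowest GPI-positive one. The difference of group means was -3.04 ± 0.36 (SE), an 8.22-fold lower level, and -3.38 without replicate 2. Igha read 5.95, 7.22 and 5.69 on the GPI-negative arrays against 9.32, 8.96 and 8.82. The difference was -2.74 ± 0.31, or 6.69-fold lower, and -3.21 without replicate 2, the same GPI-negative array that was high for Jchain. The other Igha probe sets, whose names (x_at) mark probes that can bind related sequences, gave -3.38 and -3.26, again with no overlap between the groups.

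**Figure D1:**
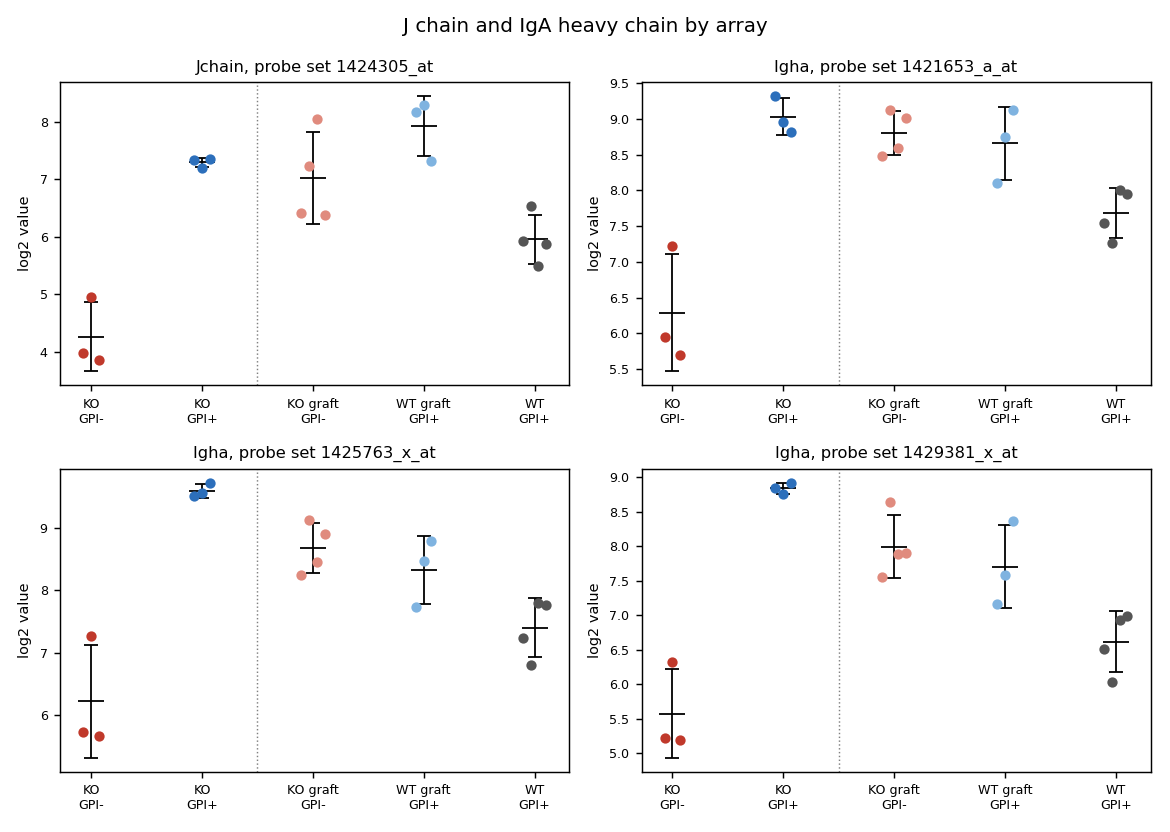
Log2 value of Jchain and of the 3 Igha probe sets on each array (points) with the group mean and SD (bars), by group; KO is the Pig-a knock-out, WT wild type, and the dotted line separates batch 1 from batch 2, whose levels are not compared. In all 4 panels every KO GPI- array lies under every KO GPI+ array, while in batch 2 the untransplanted WT group has the lowest mean.

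The kappa segments were lower in the same fraction. Igkv15-103, a light chain variable segment, read 1.34, 1.85 and 1.30 on GPI-negative and 3.67, 3.43 and 3.77 on GPI-positive arrays, a difference of -2.12 (4.35-fold lower). Igkv9-120 read 2.62, 3.43 and 2.49 against 4.87, 4.61 and 4.88, a difference of -1.94. The probe set that stood for Igkv9-120 is also named x_at, so related sequences may add to its value. Its other probe sets gave -1.02 and -0.65, and in the last of these, with mean percentiles of 14.6 and 38.5 on its arrays, the groups overlapped. These 4 immunoglobulin genes were the members past 2-fold, all lower, where 5.27% of all 14245 genes were past 2-fold in either direction. Since this comparison helped choose the members, nothing is read from that contrast of shares.

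The plasma cell regulators and ER genes did not share that size of difference. Xbp1, the secretory regulator, read 6.78, 6.44 and 6.59 on GPI-negative and 7.04, 6.95 and 7.03 on GPI-positive arrays. Its difference was -0.40 ± 0.11, and the other 3 Xbp1 probe sets gave -0.56, -0.28 and -0.43. Prdm1 ran the other way, at 1.85, 1.73 and 1.95 against 1.52, 1.22 and 1.25, a difference of +0.51. Mzb1 did so too, at 5.52, 5.67 and 4.93 against 4.79, 4.86 and 4.90, a difference of +0.53. Both were higher on each GPI-negative array than on any GPI-positive array, although for Mzb1 the lowest GPI-negative array exceeded the highest GPI-positive array only narrowly. The Prdm1 probe set lay near the middle of its arrays, at mean percentiles of 58.9 on GPI-negative and 46.7 on GPI-positive arrays. Mzb1 is also made by B cells and plasmacytoid dendritic cells, and Prdm1 by T and NK cells.

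Sdc1, the surface marker, read 2.31, 2.47 and 1.98 against 1.96, 2.0 and 1.74, with overlapping groups and a difference of +0.36. Its other 3 probe sets gave differences of 0, -0.33 and -0.04, so no direction was shared. Fkbp11, an ER prolyl isomerase, read 1.57, 1.43 and 1.25 against 1.77, 1.76 and 1.79, a difference of -0.36. Over the 9 members the median difference was -0.40 against -0.01 over all genes. Groups did not overlap for 8 members, Sdc1 being the exception, where 43.2% of all genes had groups that did not overlap.

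**Figure D2:**
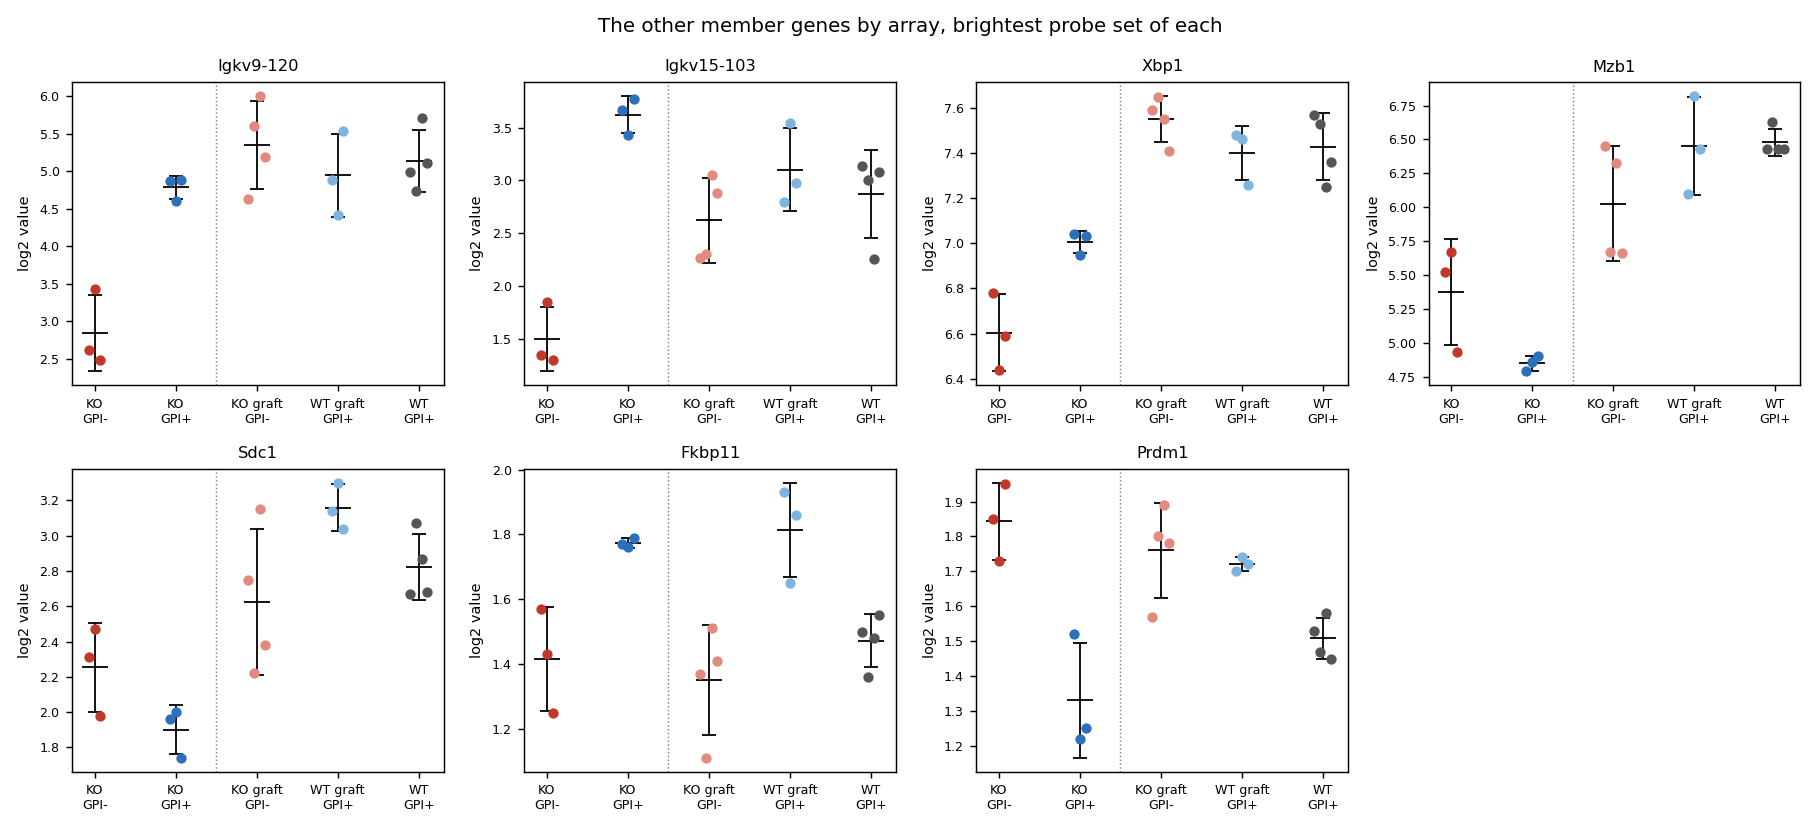
Log2 value of the brightest kept probe set of the other 7 members on each array (points) with group mean and SD (bars); each panel has its own axis, and the dotted line separates the batches. Both Igkv panels and the Xbp1 and Fkbp11 panels show KO GPI- arrays under KO GPI+ arrays, while Mzb1 and Prdm1 show the reverse order.

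Markers of other cells differed between the same 2 fractions, and their part in the values above was not tested. All 11 measured T and NK cell genes were higher on GPI-negative arrays, with a summed log2 level of 9.39 to 9.52 against 5.50 to 5.57. Early B cell genes summed to 9.02 to 9.26 against 7.68 to 7.83, with 6 of 9 past the test and all 6 higher, and mature B cell genes to 8.92 to 9.21 against 8.58 to 8.59, with 5 of 11 higher. Plasmacytoid dendritic cell genes were higher for 11 of 12 (8.91 to 8.93 against 7.62 to 7.72). Eosinophil genes were lower for 6 of 6 (4.35 to 5.17 against 7.13 to 7.14), macrophage genes for 7 of 8 (4.51 to 4.66 against 5.56 to 5.58) and neutrophil genes for 9 of 12 (13.89 to 13.98 against 14.21 to 14.26). None of 8 erythroid genes passed in limma (1 at an unadjusted p under 0.05). No gene of these lists was listed at 0 on any array. In this comparison limma, adjusted by Benjamini-Hochberg, called 29.5% of all genes. With the 3 GPI-positive arrays averaged into 1, which is then assumed to vary like the other groups, the calls went from 4206 to 1652 of 14245 genes, or 11.6%. The 5 mature B cell calls then became 0, while T and NK cell genes stayed at 11 of 11 and neutrophil genes at 9 of 12.

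Other immunoglobulin genes gave a wider view of the same locus types. Of 15 measured, 7 passed as lower and 1 as higher in knock-out GPI-negative cells, with a median of -0.72. With the GPI-positive arrays averaged, 1 was lower and 1 higher. The largest drops that passed were in the kappa segments Igkv8-30 (-1.28 ± 0.34) and Igkv6-14 (-1.25 ± 0.33). The heavy chain segment Ighv14-2 was the one that was higher, by 1.18 ± 0.24. Ighm, the IgM heavy chain that early and mature B cells also make, had a difference of +0.33 ± 0.34 and did not pass.

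In batch 2 Igha overlapped between GPI-negative and GPI-positive cells of transplanted mice. Igha read 8.48, 9.12, 8.60 and 9.02 in GPI-negative cells of knock-out grafts and 8.11, 8.75 and 9.12 in GPI-positive cells of wild-type grafts. The difference was 0.15 ± 0.29 (limma adjusted p = 0.852). The other 2 Igha probe sets gave 0.35 and 0.29, also with overlap. Untransplanted wild-type arrays read 7.54, 7.26, 8.0 and 7.95. All 4 knock-out graft arrays and all 3 wild-type graft arrays lay above every one of them.

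Igha rose in knock-out grafts against untransplanted wild type by 1.12 ± 0.26, or 2.17-fold (limma adjusted p = 0.0069). All 3 Igha probe sets were higher without overlap, by 1.12, 1.28 and 1.38. In wild-type grafts against the same wild-type arrays the difference was 0.97 ± 0.29, or 1.96-fold, which did not pass (limma adjusted p = 0.113), although the groups did not overlap. It passed when only the arrays of those 2 groups were fitted (adjusted p = 0.0361) and without knock-out GPI-negative replicate 2 (adjusted p = 0.0211). The other 2 Igha probe sets gave 0.93, with overlapping groups, and 1.09, without overlap. These comparisons share the wild-type arrays and are not independent.

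Jchain, whose product joins IgA dimers, read 6.41, 7.24, 8.06 and 6.38 in knock-out grafts, 8.17, 8.29 and 7.33 in wild-type grafts and 5.92, 6.53, 5.50 and 5.87 in untransplanted mice. All wild-type graft arrays lay above all untransplanted ones, and the knock-out grafts spread across the gap between those groups. Jchain rose in wild-type grafts against untransplanted mice by 1.97 ± 0.33, or 3.93-fold (limma adjusted p = 0.00869). Without wild-type graft replicate 1 the difference was 1.85 and did not pass (adjusted p = 0.0642). It also rose in knock-out grafts, by 1.07 ± 0.31 or 2.09-fold (limma adjusted p = 0.026), with overlapping groups. That call was lost when any 1 of 5 arrays was left out, most of all knock-out graft replicate 3, the highest (0.72, adjusted p = 0.102), and also knock-out graft replicate 2 (0.0716) or wild-type replicate 1 (0.0579), 3 (0.0931) or 4 (0.0643).

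Between the grafts Jchain differed by -0.91 ± 0.33, the direction seen in knock-out marrow, and did not pass (limma adjusted p = 0.116). It passed without knock-out graft replicate 3, at -1.25 (adjusted p = 0.0118). Its order of means in batch 2 was wild-type graft (7.93 ± 0.52, SD, n = 3), knock-out graft (7.02 ± 0.80, n = 4) and untransplanted (5.96 ± 0.43, n = 4), and the neighbours in this order overlapped in range. For Igha the order was knock-out graft (8.81 ± 0.31), wild-type graft (8.66 ± 0.51) and untransplanted (7.69 ± 0.35), of which only the first 2 overlapped.

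The kappa segments showed no common direction in batch 2. Igkv9-120 read 4.63, 5.60, 6.0 and 5.19 in knock-out grafts, 4.88, 4.42 and 5.53 in wild-type grafts and 4.99, 4.74, 5.71 and 5.11 in untransplanted mice. Igkv15-103 read 2.26, 2.30, 3.05 and 2.88, then 2.79, 3.54 and 2.97, then 3.14, 3.0, 2.25 and 3.08 in the same order. For both genes every pair of groups overlapped. The differences between grafts were 0.41 and -0.48, and those of the knock-out graft from untransplanted mice 0.22 and -0.24. The second brightest Igkv9-120 probe set was lower in knock-out grafts than in untransplanted mice by 0.58 without overlap, which the brightest one did not show.

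Fkbp11 was the only one of the 7 tested members that passed between the grafts. It read 1.37, 1.11, 1.51 and 1.41 in knock-out grafts and 1.93, 1.65 and 1.86 in wild-type grafts, with untransplanted mice at 1.5, 1.36, 1.48 and 1.55. No knock-out graft array reached the lowest wild-type graft array. The value fell by 0.47 ± 0.13 on the log2 scale (limma adjusted p = 0.0262). The probe set lay near the middle of all probe sets on an array, at the 46.4th and 59.4th percentile in the 2 groups. The second kept probe set of the gene ran the opposite way without overlap, at 1.60, 1.35, 1.23 and 1.54 against 0.87, 0.77 and 0.88, a difference of +0.59 ± 0.22 that did not pass (limma adjusted p = 0.156 among probe sets). Averaging the 2 gave +0.06 (adjusted p = 0.877), so the gene has no settled direction here.

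The other regulators and cofactors did not pass in any batch 2 comparison. Xbp1 read 7.59, 7.65, 7.55 and 7.41 in knock-out grafts, 7.48, 7.46 and 7.26 in wild-type grafts and 7.57, 7.53, 7.25 and 7.36 in untransplanted mice. Its differences were 0.15 ± 0.11 between grafts (limma adjusted p = 0.503) and 0.12 and -0.03 against untransplanted mice. The second brightest Xbp1 probe set gave 0.26 between grafts and -0.22 in wild-type grafts against untransplanted mice. It alone of the 4 Xbp1 probe sets had no overlap there, and neither difference passed (limma adjusted p = 0.182 and 0.37 among probe sets). Prdm1 read 1.57, 1.80, 1.89 and 1.78, then 1.70, 1.74 and 1.72, then 1.53, 1.47, 1.58 and 1.45. Each wild-type graft array exceeded each untransplanted array for this gene, with a difference of 0.22 (limma adjusted p = 0.439), and the grafts differed by 0.04.

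Mzb1 read 6.45, 5.67, 6.33 and 5.66 in knock-out grafts, 6.10, 6.82 and 6.43 in wild-type grafts and 6.43, 6.63, 6.43 and 6.43 in untransplanted mice. Knock-out graft replicates 2 and 4 lay under all arrays of the other groups. The differences were -0.42 ± 0.20 between grafts (limma adjusted p = 0.231) and -0.45 against untransplanted mice (limma adjusted p = 0.114). The latter passed without knock-out graft replicate 1, at -0.60 (adjusted p = 0.0358). Sdc1 read 2.75, 2.22, 3.15 and 2.38, then 3.14, 3.30 and 3.04, then 2.67, 3.07, 2.87 and 2.68. Its difference between grafts was -0.54 ± 0.17 (limma adjusted p = 0.0678), and -0.71 without knock-out graft replicate 3, which then passed (adjusted p = 0.00718). The probe set that stood for Sdc1 is named x_at, and the other 3 Sdc1 probe sets gave -0.05, 0.08 and -0.05.

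**Figure D3:**
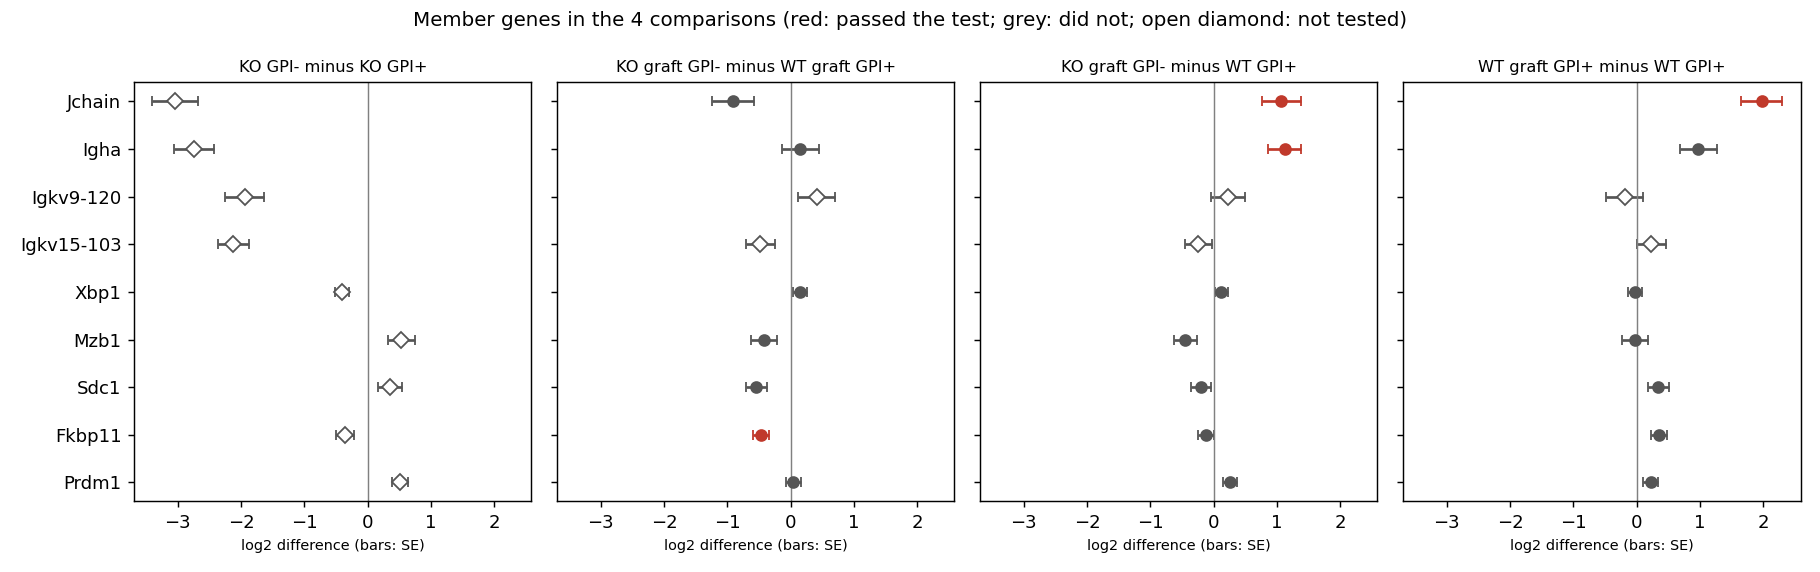
Log2 difference of group means with its SE for each member in the 4 comparisons; red points passed at an adjusted p under 0.05, grey points did not, and open diamonds were not tested. The 4 immunoglobulin and J chain genes lie far left of 0 in knock-out marrow, while in batch 2 Jchain and Igha lie right of 0 in both grafts against untransplanted mice, where the 2 panels share the WT arrays.

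Counts over the members read as follows beside all genes. Between the grafts 1 of 7 tested members passed, lower, where 7.39% of all genes passed, and 1 of 9 had groups that did not overlap, where 15.5% of all genes did. In knock-out grafts against untransplanted mice 2 of 7 passed, both higher, against 12.4% of all genes, and 1 of 9 did not overlap, against 16.4%. In wild-type grafts against untransplanted mice 1 of 7 passed, higher, against 0.842% of all genes, and 4 of 9 did not overlap (Jchain, Igha, Fkbp11 and Prdm1), against 13.9%. The share for wild-type grafts moved with single arrays. Its 120 calls became 21 without wild-type graft replicate 1, 55 without replicate 2 and 77 without replicate 3, and 29, 60 and 57 without untransplanted replicates 1, 2 and 4. They were 67, 77 and 78 without knock-out GPI-positive replicates 1, 2 and 3, 262 without knock-out GPI-negative replicate 2 and 237 with only the 2 groups fitted. Between the grafts the 1053 calls became 680 and 684 without wild-type graft replicates 2 and 3. The median differences of the 9 members were -0.42, 0.12 and 0.23 in this order, against -0.01, 0.02 and 0.02 over all genes. Exact two-sided permutation tests of the group means, run for the 7 genes in these 3 comparisons, gave at best 0.02857, the smallest p the design allows, and 0.1 after Benjamini-Hochberg adjustment over the 21 tests.

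Few other immunoglobulin genes passed in batch 2. Between the grafts Ighv14-2 was higher in knock-out grafts by 1.09 ± 0.23 (limma adjusted p = 0.00419), and the kappa locus entry Igk was lower by 1.86 ± 0.53 on the log2 scale (limma adjusted p = 0.0343). The other 13 of 15 did not pass. Against untransplanted mice Ighv14-2 alone passed, higher by 1.14 ± 0.21 (limma adjusted p = 0.000868), and none passed in limma in wild-type grafts (4 at an unadjusted p under 0.05), where Igk had the widest difference, 1.99 ± 0.53 (limma adjusted p = 0.0809). Ighm differed by -0.83 ± 0.32 between grafts and did not pass (limma adjusted p = 0.134). Summed levels of the 15 spread widely within groups, from 10.46 to 11.92 in knock-out grafts, 10.88 to 11.95 in wild-type grafts and 10.73 to 11.43 in untransplanted mice.

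**Figure D4:**
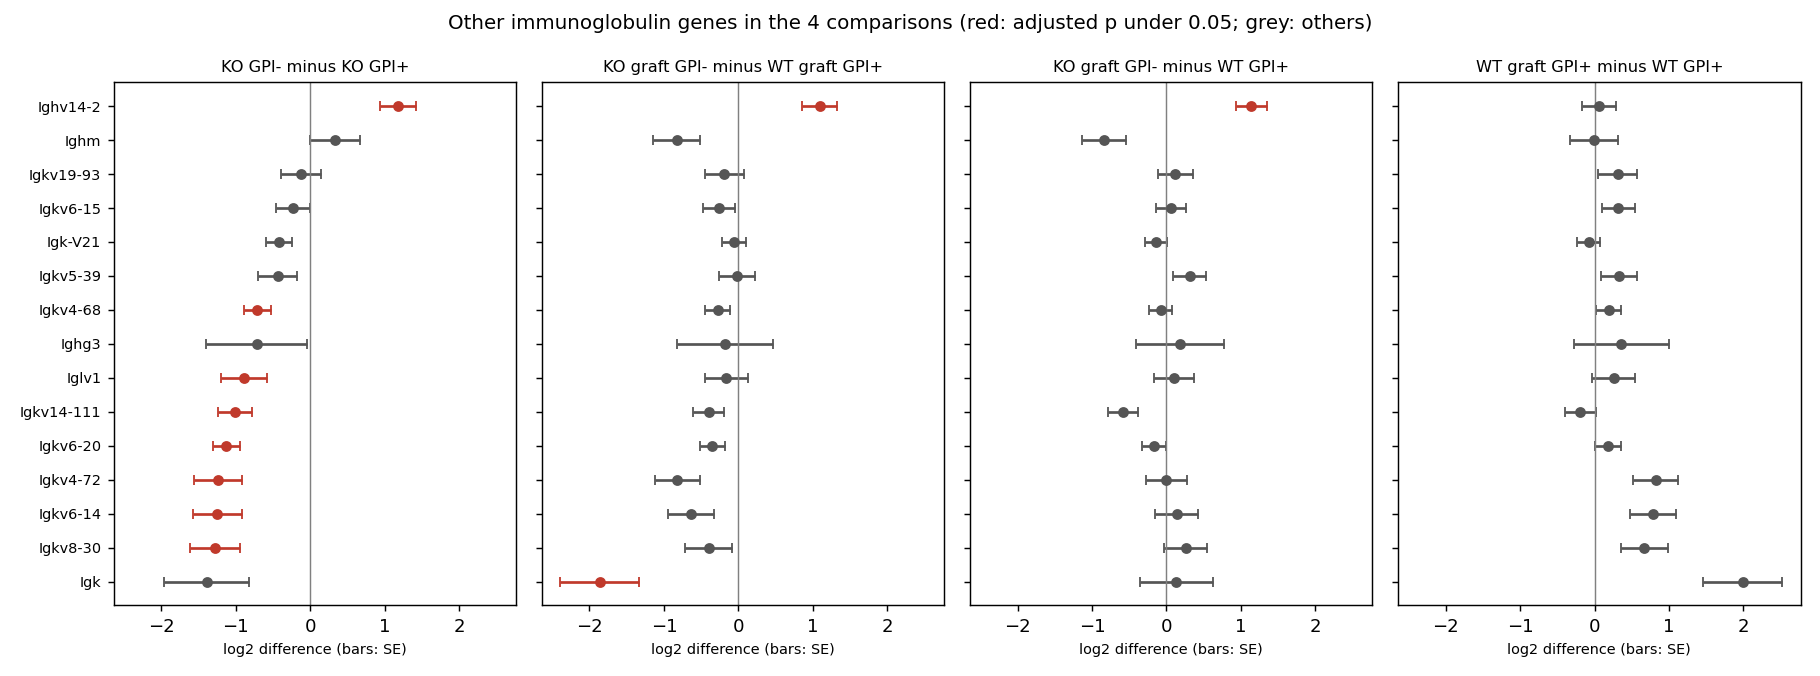
Log2 difference of group means with its SE for 15 other immunoglobulin genes in the 4 comparisons, ordered by the knock-out comparison; red points had an adjusted p under 0.05. Ighv14-2 lies right of 0 in the first 3 panels, whereas most kappa segments lie left of 0 in the first panel and near 0 in the third.

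Further plasma cell genes did not follow Jchain and Igha as a group. Of 20 measured, 4 were higher and 7 lower in knock-out GPI-negative cells, with a median of -0.02, or 4 lower and 2 higher with the GPI-positive arrays averaged. Cd27 (+2.28), a receptor of plasma cells and also of T and NK cells, and the integrin gene Itga4 (+1.24) led the higher ones, and Cd9 (-1.31) and Cd44 (-0.99), both widely carried surface proteins, the lower ones. The remaining lower ones were Slpi (-0.87), Tnfrsf17 (-0.83, with low means of 0.40 and 1.23), Derl3 (-0.67), Ell2 (-0.62) and Cxcr4 (-0.59). Pou2af1 (+0.49) and Glcci1 (+0.38) were the remaining higher ones. Between the grafts Il6ra, the receptor for the survival cytokine IL-6, rose by 0.90 (limma adjusted p = 0.00424) and Cd27 by 0.60 (limma adjusted p = 0.0219), and the others did not pass. Against untransplanted mice 3 rose and 5 fell in knock-out grafts. Among them were Il6ra (+1.00) and Cd27 (+0.66), and Tent5c (-1.39), a poly(A) polymerase gene, and Irf4 (-0.56), a factor needed for plasma cells. None passed in limma in wild-type grafts (2 at an unadjusted p under 0.05).

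Genes of ER chaperoning and folding, many of them XBP1 targets, showed small differences. Of 35 measured, 1 was higher and 6 lower in knock-out GPI-negative cells, led by Syvn1 (+0.50), a ubiquitin ligase gene, and by the chaperone genes Sdf2l1 (-0.78) and Hyou1 (-0.62). With the GPI-positive arrays averaged none of the 35 passed. None passed in limma between the grafts (6 at an unadjusted p under 0.05). In knock-out grafts against untransplanted mice 5 rose, among them the disulfide isomerase gene Pdia6 by 0.47 (limma adjusted p = 0.0056) and Ern1, the sensor that splices Xbp1, by 0.45 (limma adjusted p = 0.027), while Syvn1 fell by 0.41 (limma adjusted p = 0.011). None passed in wild-type grafts against untransplanted mice (11 at an unadjusted p under 0.05).

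B cell genes that Blimp-1 is known to repress differed in knock-out GPI-negative cells, with 6 of 9 higher and 1 lower, or 2 higher and none lower with the GPI-positive arrays averaged. Bach2 (+1.01) and Id3 (+0.80) led the higher ones and Bcl6 (-1.18) was the lower one. In knock-out grafts against untransplanted mice 3 of 9 fell: Id3 by 0.72, Spib by 0.65 and Ebf1 by 0.63. None passed in limma between the grafts or in wild-type grafts against untransplanted mice (1 and 2 at an unadjusted p under 0.05). Of 5 niche and survival genes, Vcam1, which holds plasma cells and is also made by marrow macrophages, was lower in GPI-negative cells of knock-out marrow (-1.81) and of grafts against both controls (-1.94 and -2.22). Tnfsf13b, which encodes the survival factor BAFF, was lower in knock-out marrow (-1.38), and Il6 rose in knock-out grafts against untransplanted mice by 0.67 (limma adjusted p = 0.0126). Il6 values were low, with a mean of 1.81 in knock-out grafts.

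Markers of other cells differed in batch 2 too, and their part in the values of the members was not tested. Of 11 T and NK cell genes 10 rose in knock-out grafts against either control, and their summed log2 level was 7.07 to 8.54, against 5.36 to 5.81 in wild-type grafts and 5.64 to 6.08 in untransplanted mice. Plasmacytoid dendritic cell genes rose for 10 of 12 between the grafts. They rose for 7 of 12 against untransplanted mice, where 1 fell. Of 11 mature B cell genes, 4 rose and none fell in knock-out grafts against wild-type grafts, and 3 rose and 2 fell against untransplanted mice. Mature B cell genes summed to 9.76 to 10.58 in knock-out grafts, 9.51 to 10.18 in wild-type grafts and 9.90 to 10.29 in untransplanted mice. In the same order early B cell genes summed to 8.60 to 9.44, 8.87 to 9.53 and 8.82 to 9.39. The ranges of these sums overlapped between groups. Macrophage genes fell in knock-out grafts for 6 of 8 against wild-type grafts and for 7 of 8 against untransplanted mice, with summed levels of 4.73 to 5.13, 5.58 to 5.77 and 5.90 to 6.17. Against the same controls in that order, neutrophil genes fell for 5 and 2 of 12, eosinophil genes for 2 and 1 of 6 and erythroid genes for 4 and 7 of 8. In wild-type grafts against untransplanted mice, where Jchain rose, 2 neutrophil genes rose, 2 macrophage, 2 plasmacytoid dendritic and 1 mature B cell genes fell, and no T and NK, eosinophil, erythroid or early B cell gene passed in limma (2, 3, 2 and 2 at an unadjusted p under 0.05).

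Across the 11 arrays of batch 2, the genes whose values ran most like Jchain were Crls1 (Pearson r = 0.91), Xab2 (0.90), 1700006J14Rik (0.87), Spdya (0.87) and Ppm1a (0.86). Those most like Igha were Aebp2 (0.93), Mpp6 (0.92), Oxsr1 (0.92), Klhl32 (0.91) and Cuta (0.91). No immunoglobulin gene was among either set. Between members r was 0.45 for Jchain with Igha, 0.72 for Jchain with Prdm1, 0.78 for Igha with Prdm1 and 0.75 for Mzb1 with Sdc1 (Spearman's rho 0.42). Other pairs ran against each other, with r of -0.52 for Xbp1 with Fkbp11, -0.47 for Igha with Mzb1, -0.46 for Mzb1 with Prdm1 and -0.32 for Igkv9-120 with Igkv15-103. These are descriptions over arrays that share 3 group means, with no test.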

How the data were processed

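RNA of sorted marrow cells was hybridised to 17 Affymetrix arrays. The authors deposited one value table on a log10 scale, quantile-normalized within each batch. The base and the normalization were read from the values; how background was corrected and probes summarised is not given in the sources used. GCOS, the array maker's software, is named without a role per the submitters' processing notes. Values were divided by the log10 of 2 and array medians centred. Of 45101 probe sets, 64 controls were left out, 34945 of the others had 1 symbol, 932 several and 9160 none here. Probe sets at or above the 40th percentile on at least 3 arrays were kept (32426), and the brightest kept one with 1 symbol stood for each of 14245 genes. One limma 3.58.1 fit (R 4.3.3; lmFit and trended eBayes), which took in all arrays, had 5 group means and 12 residual degrees of freedom, with Benjamini-Hochberg adjustment per comparison, threshold 0.05. The number of arrays limits the precision, and values near the floor are compressed. Folds come from the log2 differences, and errors are the fit's SE. The script was tested on simulated data. Members and gene lists were chosen with earlier results of these data known. All 9 members are named, and of other lists at most the 2 largest passing differences in each direction per comparison, plus the 5 genes most like Jchain and Igha. Single genes outside that rule (Ighm, Igk in wild-type grafts, Ebf1) were picked after their values were seen. So was the choice to name all further plasma cell genes that passed in knock-out marrow. Alternatives were normalization, centring, filter, probe set choice, trend, arrays fitted, a replicate block and leaving out each array.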

Additional observations from a re-analysis of the deposited data

Results flagged for a closer look

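Of the 9 members in the groups of 4 arrays, 2 had an array far from the others, by its gap to the nearest array divided by the group's range; chance alone gives such a gap in about 1 of 20 groups. Igkv15-103 read 2.25 on wild-type replicate 3, with the other untransplanted arrays between 3.0 and 3.14 (ratio 0.843). Mzb1 read 6.63 on wild-type replicate 2, while the other 3 read 6.43 after rounding (ratio 0.976).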

How the results depend on the processing

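In knock-out marrow the same 4 genes stayed past 2-fold under each alternative run. Between the grafts, the count of 1 member passing became 0 with the stricter filter (60th percentile), which left Fkbp11 and Prdm1 out, and with the mean of probe sets, with only the 2 groups compared and with the 3 knock-out GPI-positive arrays averaged into 1. It ranged from 0 to 3 when 1 array was left out. Fkbp11, the member counted, reversed to 0.06 with the mean of probe sets. In knock-out grafts against untransplanted mice the count was 2, and 1 to 3 with 1 array left out. Mzb1 joined Jchain and Igha when knock-out graft replicate 1 was left out. In wild-type grafts it was 1, became 2 with only the 2 groups compared, and ranged from 0 to 2 with 1 array left out. The cause was not tested. With the replicate block the counts of members passing stayed at 1, 2 and 1 and no call changed (Jchain in wild-type grafts 1.85, adjusted p = 0.0373). The labels do not say whether same-numbered arrays belong together, and their deviations correlated at -0.18 to 0.1. The knock-out GPI-positive arrays differed too little from each other for this to settle pairing. Over single member values and alternatives, 1016 counted as the same, 11 lost and 5 gained a call, 3 moved by more than the replicate SD and 1 reversed. For tested values the same meant no call lost or gained, and for the others a shift under the replicate SD. A small value that changed direction without a call could therefore count as the same.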
